A study of Mus musculus with 8 samples.

Results

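Livers of mice given the plant flavonoid sudachitin were compared with livers of vehicle-treated mice killed at the same daytime hour, zeitgeber time 6 (ZT6, 6 hours after lights on). The comparison uses the 2 sudachitin and 2 control libraries of ZT6, which are 4 of the 8 libraries of the series; the other 4 come from ZT18, in the night. All mice were male C57BL/6J, bought at 4 weeks of age, kept for 4 weeks and then fed a diet with 45% of its calories from fat, so the control livers also come from mice on a high-fat diet. Sudachitin mice (a cohort of 12) were gavaged every other day with 100 mg per kg of body weight between ZT8 and ZT10, and control mice (a cohort of 11) with phosphate-buffered saline in the same way. Livers were taken at 30 weeks of age, from 2 mice of each group at ZT6. Neither the hours since the last gavage nor whether the mice had eaten is given in the sources used here.

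Sudachitin is a polymethoxyflavone, a flavonoid with several methoxy groups found in sudachi citrus peel, and the series asks how it acts on the liver clock and on metabolism. Of the 10 transcripts that passed the test at ZT6, 4 belong to the acute-phase response. In it, cytokines such as interleukin 6, interleukin 1 and tumour necrosis factor reach the hepatocyte, and STAT3, NF-kB and C/EBP factors raise the transcription of secreted plasma proteins, above all serum amyloid A. These proteins bind lipids, iron-carrying siderophores, haem or haemoglobin, and their mRNAs can change within hours.

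The 4 libraries held 16271289 and 14448504 counts in exons for sudachitin and 13914116 and 15093803 for control. Between the 2 livers of each treatment, log2 expression had a Pearson r of 0.984 in sudachitin and 0.985 in control, taken across transcripts, which are not independent replicates. The label of liver held in all 4 libraries: Alb, serum albumin, was at 58600 and 72000 CPM (counts scaled to library size) in sudachitin and 79100 and 65000 CPM in control livers. The pancreas markers Prss2 and Cpa1 were at 0 counts in every library. Cela1, also listed as a pancreas marker, was at 21.6 and 21.7 CPM in sudachitin livers, against 14.1 and 29.9 CPM in control livers. The 2 mice of each ZT6 group share the start of the code in their sample titles and the groups differ in it. If that code marks a cage or a day, treatment and cage or day cannot be told apart here.

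At ZT6, 10 of 13681 tested transcripts passed an adjusted p of 0.05, which is 0.0731% of those tested, in edgeR's quasi-likelihood test on the 4 libraries. Of these, 7 rose in sudachitin livers (0.0512%): the serum amyloids Saa1 and Saa2, the orosomucoid Orm2, the lipocalin Lcn2, the fibrinogen-like Fgl1, and AY036118 and Gm42418 of the ribosomal DNA unit. The other 3 fell (0.0219%): Aacs, Serpina4-ps1 and Cfd. Another 517 transcripts lay under an unadjusted p of 0.05 without passing, among 527 in all, 283 higher and 244 lower. DESeq2 called 19, the 10 among them, while the count was 0 when the 4 ZT18 libraries were added to the fit to estimate the spread, and 0 with limma on log2(FPKM + 0.1). Without sudachitin replicate 1 the count was 50, without sudachitin replicate 2 it was 18, without control replicate 1 it was 8 and without control replicate 2 it was 21. Each of these fits has 1 mouse in an arm, which is assumed to vary like the mice of the other group, and does not test that arm's own spread. With 2 mice against 2, an exact permutation test of a single gene cannot give a two-sided p under 0.333, so each call rests on the spread that edgeR shares across transcripts.

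**Figure D1:**
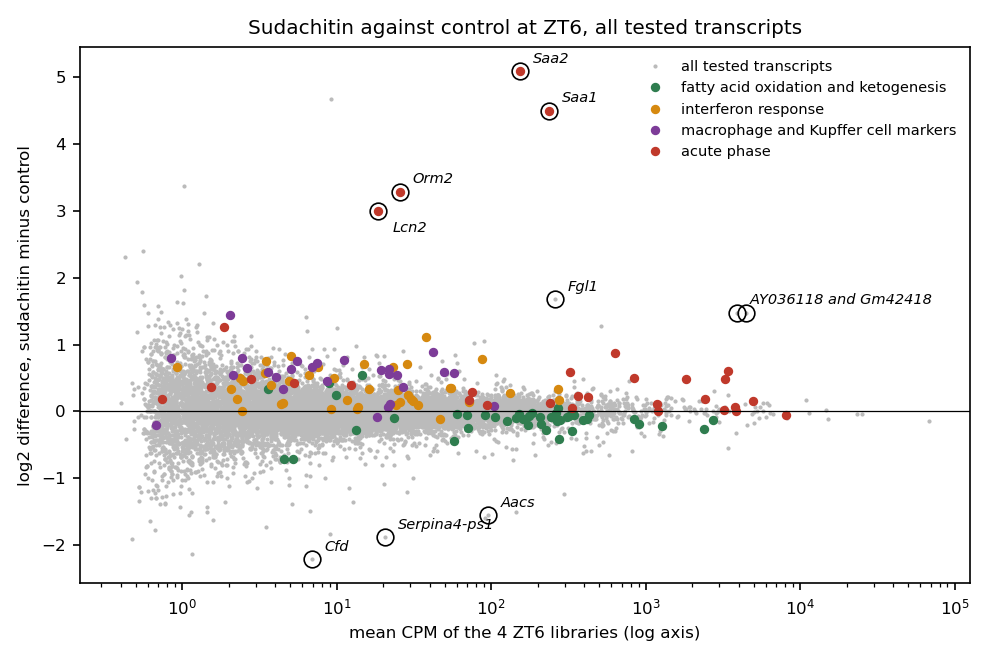
Log2 difference between sudachitin and control livers at ZT6 (vertical axis) against the mean CPM of the 4 libraries (horizontal axis, log scale), 1 point per tested transcript. Black circles mark the 10 transcripts that passed, and colours mark members of 4 gene lists. Among the 10, Saa2, at 5.09, and Saa1, at 4.50, lie highest and Cfd, at -2.21, lies lowest; Moxd1, which did not pass, lies between Saa2 and Saa1 at 4.68.

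Serum amyloid A transcripts showed the largest rise among those that passed. Saa1 encodes an apolipoprotein that replaces others on high-density lipoprotein in inflammation. Saa1 (chr7:46740497-46742980, minus strand, GRCm38) was at 604 and 309 CPM in sudachitin livers, against 22.0 and 18.4 CPM in control livers. Both sudachitin livers lay far above both controls, and sudachitin replicate 1 was the highest. The difference was 4.50 on the log2 scale (SE 0.32, edgeR adjusted p = 0.0059), a fold of 22.6. Saa2, its neighbour at chr7:46751790-46754313 on the plus strand, was at 410 and 190 CPM in sudachitin livers, against 11.2 and 6.57 CPM in control livers. On the log2 scale it rose by 5.09 (SE 0.42, edgeR adjusted p = 0.0098). Per length, Saa1 reached 459 and 240 FPKM (counts scaled to exon length and library size) in sudachitin livers, against 16.9 and 14.3 FPKM in control livers; albumin stood at 13400 and 16800 FPKM, against 18300 and 15100 FPKM. By that measure Saa1 lay far below albumin in every liver. The Saa1 and Saa2 transcripts are identical at 94.4% of 606 aligned bases, so that reads may have been placed on the wrong member of the pair and each value is uncertain. Saa3 (3.10 and 3.45 CPM, against 2.90 and 1.77 CPM) and Saa4 (259 and 240 CPM, against 191 and 266 CPM), the other members of the family, did not pass.

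Orosomucoids are acidic glycoproteins that carry lipophilic ligands in plasma. Orm2 (chr4:63362449-63365878, plus strand) was at 50.3 and 42.8 CPM in sudachitin livers, against 5.58 and 3.94 CPM in control livers. It rose by 3.29 on the log2 scale (SE 0.18, edgeR adjusted p = 0.0024), the smallest p of the comparison, with little spread within either group. Orm1, the abundant member, was at 888 and 742 CPM, against 507 and 385 CPM. Its groups did not overlap, yet its difference of 0.87 (SE 0.16, adjusted p = 0.60) did not pass. Orm3 was at 1.80 and 3.45 CPM, against 1.38 and 0.788 CPM, and did not pass. Orm1 and Orm2 transcripts are identical at 91.0% of 775 aligned bases and Orm2 and Orm3 at 89.0% of 771, which leaves the split between them uncertain.

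Lcn2 encodes lipocalin 2, which binds bacterial siderophores and is made by hepatocytes and by neutrophils. Lcn2 (chr2:32384633-32387797, minus strand) was at 37.6 and 28.2 CPM in sudachitin livers, against 4.64 and 3.61 CPM in control livers, a rise of 3.0 (SE 0.20, edgeR adjusted p = 0.005). The defining neutrophil transcripts were near 0 throughout: Ly6g had 0 and 1 counts against 0 and 2, Retnlg 1 and 1 against 0 and 1, and S100a8 2 and 7 against 2 and 4. Of 14 neutrophil markers 3 passed the filter on low counts, and besides Lcn2 neither Csf3r, at 0.74 (SE 0.33), nor Ltf, at -0.34 (SE 1.37), passed the test. Fgl1 (chr8:41191434-41215156, minus strand), a fibrinogen-like protein secreted by hepatocytes, was at 416 and 377 CPM in sudachitin livers, against 142 and 106 CPM in control livers. It rose by 1.68 (SE 0.16, edgeR adjusted p = 0.019), with each group close together. The plot of the called transcripts shows these values library by library. With each of the 4 libraries left out in turn, Saa1, Saa2, Orm2, Lcn2 and Fgl1 had adjusted p values up to 0.025, from fits with 1 mouse in an arm. In the fit over all 8 libraries their adjusted p values were 0.86 to 1.0, and with limma on log2(FPKM + 0.1) they were 0.17 to 0.48.

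**Figure D2:**
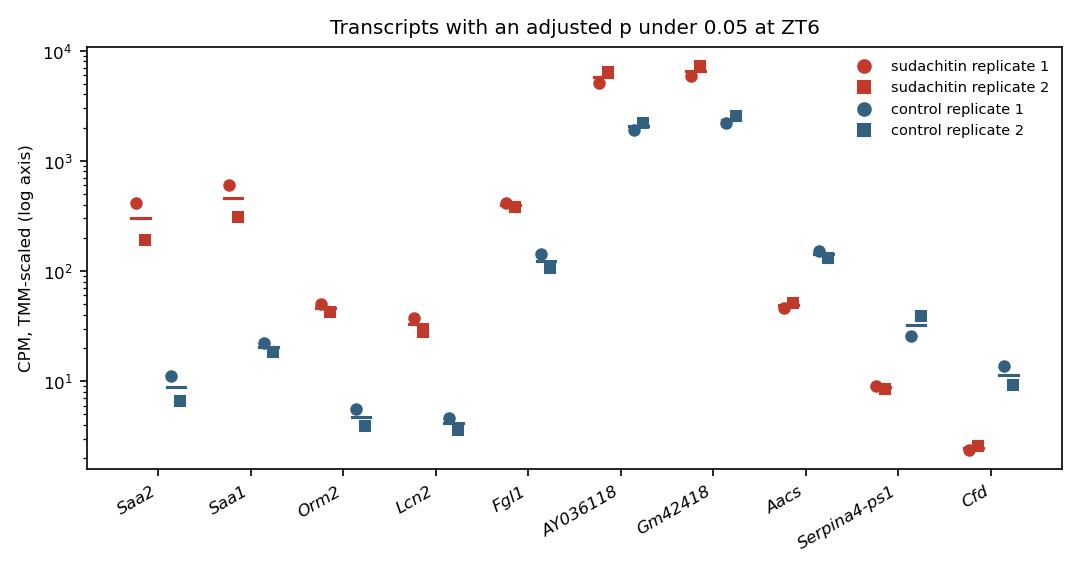
CPM (TMM-scaled, log axis) of the 10 transcripts with an adjusted p under 0.05 at ZT6 in the 2 sudachitin (red) and 2 control (blue) livers; circles are replicate 1, squares replicate 2 and bars the mean of 2 mice. In all 10 transcripts the groups do not overlap, and Saa2 spans the widest gap, from 190 CPM in the lower sudachitin liver to 11.2 CPM in the higher control liver.

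The promoters of the 4 acute-phase genes that rose, from the RefSeq table (build GRCm38.p6), are shown because each holds the C/EBP letters TTGCNNAA, searched on both strands and set in capitals. Each line runs from 250 bases before to 50 bases after the annotated start, 5′ to 3′ on the gene's strand. They lie at chr7:46742931-46743230 (minus strand) for Saa1, chr7:46751583-46751882 (plus) for Saa2, chr4:63362199-63362498 (plus) for Orm2 and chr2:32387690-32387989 (minus) for Lcn2.
Saa1: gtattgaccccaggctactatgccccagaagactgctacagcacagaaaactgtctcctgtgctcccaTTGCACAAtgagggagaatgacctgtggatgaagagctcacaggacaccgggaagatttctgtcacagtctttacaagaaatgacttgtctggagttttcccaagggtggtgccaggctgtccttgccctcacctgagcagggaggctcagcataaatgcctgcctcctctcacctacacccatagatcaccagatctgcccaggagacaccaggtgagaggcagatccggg
Saa2: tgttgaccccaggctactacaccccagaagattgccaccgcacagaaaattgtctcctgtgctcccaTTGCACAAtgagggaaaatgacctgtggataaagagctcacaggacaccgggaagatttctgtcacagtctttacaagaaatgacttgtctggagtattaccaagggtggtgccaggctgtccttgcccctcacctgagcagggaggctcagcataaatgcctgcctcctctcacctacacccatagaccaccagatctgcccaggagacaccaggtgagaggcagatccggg
Orm2: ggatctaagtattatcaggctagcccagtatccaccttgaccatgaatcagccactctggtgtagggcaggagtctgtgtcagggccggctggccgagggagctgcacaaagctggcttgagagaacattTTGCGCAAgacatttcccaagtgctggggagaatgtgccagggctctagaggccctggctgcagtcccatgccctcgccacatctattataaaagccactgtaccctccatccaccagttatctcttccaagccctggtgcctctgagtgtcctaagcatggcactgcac
Lcn2: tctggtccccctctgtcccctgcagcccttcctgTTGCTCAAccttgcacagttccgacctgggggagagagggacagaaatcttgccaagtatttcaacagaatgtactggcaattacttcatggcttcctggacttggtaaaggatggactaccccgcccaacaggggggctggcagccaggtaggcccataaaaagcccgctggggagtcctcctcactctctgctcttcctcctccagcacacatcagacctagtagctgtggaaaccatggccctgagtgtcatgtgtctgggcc

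The Saa1 and Saa2 promoters point away from each other on chromosome 7 and are identical at 96.0% of 299 aligned bases. Counted from the RefSeq start site, the capitals begin at -182 in Saa1, -183 in Saa2, -120 in Orm2 and -216 in Lcn2. That site is 43 bases from the start of the counted transcript in Saa2 and 58 bases in Lcn2. In Saa1 and Orm2 the starts are the same. Of the 10 transcripts that passed, 7 matched a promoter in the table, and 6 of these 7 hold TTGCNNAA, Aacs, which fell, being one of them. Saa1 and Saa2, with near-identical promoters, are both among the 6. Of 31 acute-phase genes 25 matched a promoter, and 13 of the 25 hold it, which is 52.0%, against 10.8% of all 32851 promoters. The letters TTCNNNGAA, a STAT pattern, were in 6 of the 25 (24%), against 8.30% of all promoters. GGGANTTTC, an NF-kB pattern, was in none of the 25 and in 1.11% of all promoters. In the 7 promoters of transcripts that passed, neither the STAT nor the NF-kB pattern was found. These are matches of letters in a window of fixed length, some of which may overlap, and do not show binding. Shares over genes listed as acute-phase describe the list and not the treatment.

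Across the acute-phase list, values lay above 0 in nearly all members, and differences were small outside the genes above. All 31 listed genes were tested, 4 rose, none fell and 27 did not pass. Of the 31, 30 had a log2 difference above 0, with a median of 0.29, while over all tested transcripts 50.3% were above 0 and the median was 0.00. In 21 of the 31 both sudachitin livers lay above both controls and in 0 the reverse held; among all tested transcripts this was so in 16.1% and 15.5%. Among the rest are abundant carriers of haem and haemoglobin. Hpx, haemopexin, was at 4330 and 3910 CPM in sudachitin livers, against 2890 and 2510 CPM in control livers, a difference of 0.61 (SE 0.13, adjusted p = 0.87). Hp, haptoglobin, was at 4100 and 3550 CPM, against 2910 and 2590 CPM, a difference of 0.48 (SE 0.13). Itih3 and Itih4, heavy chains of the inter-alpha-trypsin inhibitor, differed by 0.50 (SE 0.16) and 0.48 (SE 0.12). Hamp, the iron hormone hepcidin, was at 342 and 434 CPM, against 313 and 202 CPM, a difference of 0.59 (SE 0.21). None of these 5 passed. The fibrinogen chains lay near 0, with Fga at 0.01 (SE 0.13), Fgb at 0.07 (SE 0.12) and Fgg at 0.02 (SE 0.12). Serpina3n, an antiproteinase, was at 449 and 342 CPM, against 356 and 320 CPM, and its groups overlapped. Of 12 negative acute-phase genes, which fall when the positive ones rise, none passed and the median was -0.01. Among them Igfals, the subunit that keeps IGF1 in plasma, differed by -0.25 (SE 0.10), and Serpina6, which carries corticosteroids, by 0.31 (SE 0.16) with overlapping groups. The list names were chosen with results of these libraries known, so the counts describe these 4 livers.

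The ligands that drive this programme were hardly detected in whole liver, and their receptors and signalling genes had no call. Il6 had 0 counts in all 4 livers, Tnf had 0 and 1 counts in sudachitin and 1 and 1 in control livers, and Il1b had 1 and 4 counts against 10 and 1. A count of 0 allows up to 3 counts, so ligand mRNA was not measurable at this depth. Socs3, the feedback inhibitor that STAT3 induces, was at 7.87 and 9.18 CPM in sudachitin livers, against 4.28 and 5.32 CPM in control livers. Its difference was 0.82 (SE 0.21) and did not pass. Il6ra, the interleukin 6 receptor, differed by 0.54 (SE 0.14) and Il1r1, the interleukin 1 receptor, by 0.59 (SE 0.16), both without overlap and without passing. Il6ra overlaps an antisense gene, and the libraries carry no strand. Over the 29 tested receptors and signalling genes the median was -0.01, with 13 above 0. Without overlap 5 lay higher and 5 lower, 17.2% each, near the 16.1% and 15.5% of all tested transcripts; the lower ones were Il6st, Myd88, Nfkb2, Rela and Cebpd, at -0.24 to -0.08.

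Interferon-stimulated and antigen presentation genes had values above 0 in nearly all members, and none passed. Of 40 tested interferon-response genes 39 lay above 0, with a median of 0.34, and in 24 both sudachitin livers were above both controls (60%, against 16.1% of all tested transcripts). Apol9a, an interferon-induced apolipoprotein L, was at 52.5 and 51.1 CPM in sudachitin livers, against 20.7 and 27.2 CPM in control livers, a difference of 1.11 (SE 0.14, edgeR adjusted p = 0.10). Its transcript is identical to that of Apol9b, at 0.79 (SE 0.15), over 98.5% of 1529 bases, so the split between them is uncertain. Irf7, the transcription factor that amplifies type I interferon, was at 27.1 and 30.0 CPM, against 17.8 and 18.1 CPM, a difference of 0.67 (SE 0.11, adjusted p = 0.43). Both groups were tight and did not overlap. Rtp4, a further interferon-stimulated gene, was at 18.8 and 18.5 CPM, against 10.5 and 12.3 CPM. Of the interferon-response genes 31 matched a promoter, and 21 of them (67.7%) hold TTTCNNTTT, the letters of an interferon-stimulated response element, against 10.6% of all promoters. These genes were listed as interferon-stimulated, so the share describes the list and not the treatment. All 15 tested antigen presentation genes lay above 0, with a median of 0.54 and 11 without overlap (73.3%, against 16.1%). H2-Ab1, a class II chain, was at 17.7 and 28.6 CPM in sudachitin livers, against 14.6 and 11.3 CPM in control livers. Cd74, the class II invariant chain, was at 41.5 and 78.4 CPM, against 36.2 and 35.2 CPM. For both, most of the difference lay in sudachitin replicate 2.

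Markers of Kupffer cells, the resident macrophages of liver, had values mostly above 0, unevenly between the sudachitin livers. Of 27 tested macrophage and Kupffer cell markers 25 lay above 0, at a median of 0.59, but no marker passed. Without overlap 17 lay higher (63%, against 16.1% of all tested transcripts). Clec4f, a lectin of Kupffer cells, was at 47.1 and 71.7 CPM in sudachitin livers, against 34.5 and 44.5 CPM in control livers. Cd5l, which Kupffer cells secrete, was at 42.6 and 67.4 CPM, against 26.3 and 33.0 CPM. Marco, a scavenger receptor, was at 2.29 and 3.73 CPM, against 1.01 and 1.18 CPM, at 1.44 (SE 0.36) the largest of the tested markers. Sudachitin replicate 2 was the higher of the pair in 26 of 27 markers. Their summed level was 451 and 693 CPM in sudachitin livers, against 423 and 426 CPM in control livers. By this sum sudachitin replicate 1 lay near the controls. The most abundant member in every liver was Slc40a1, at 77.4 and 137 CPM, against 111 and 91.8 CPM, which weighs on the sum. The median deviation of the markers from the control mean was 0.20 and 0.87 in sudachitin livers and -0.05 and 0.05 in control livers. In bulk tissue more cells of a type and more RNA per cell cannot be told apart. Recruited-monocyte markers were sparse, with Ccr2 at 0.062 and 0.483 CPM, against 0.870 and 0.591 CPM. Ccr2, Ly6c2 and Gpnmb were under the filter on low counts. Trem2 went the other way, at 1.12 and 1.03 CPM, against 0.362 and 0.853 CPM, without overlap and without passing. Itgax differed by -0.21 (SE 0.58), with overlap. Over 9 tested lymphocyte markers the median was 0.16, with 6 above 0. Ighm, the heavy chain of IgM, was at 9.24 and 22.7 CPM in sudachitin livers, against 34.9 and 16.3 CPM in control livers. Jchain, at 0.77 (SE 0.48), and Igkc, at 0.31 (SE 0.44), lay above 0. The groups overlapped in each of these genes. The part of these cells in the differences of the acute-phase, interferon and antigen presentation genes was not tested.

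**Figure D3:**
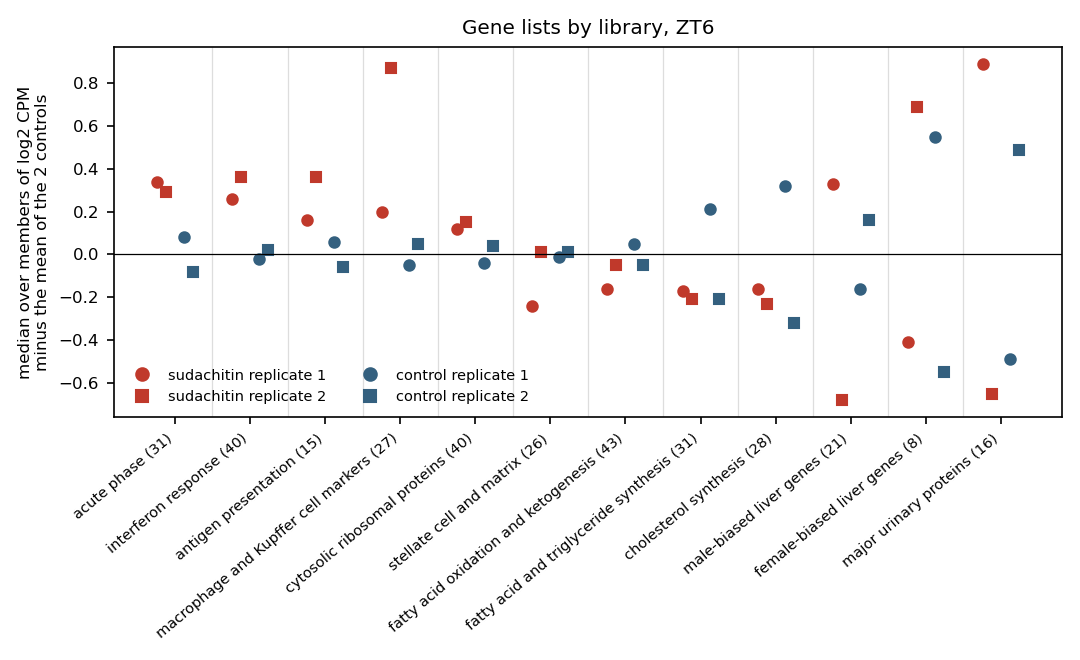
For 12 gene lists (number of tested members in brackets), the median over members of log2 CPM minus the mean of the 2 control livers, 1 symbol per library (sudachitin red, control blue, circles replicate 1, squares replicate 2). Acute-phase and interferon lists are above the controls in both sudachitin livers, macrophage markers stand at 0.20 and 0.87 in the 2 sudachitin livers, and cholesterol synthesis in both sudachitin livers lies between the 2 control livers.

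Endothelial and stellate cell markers had values mostly below 0. Of 14 endothelial markers 3 lay above 0, with a median of -0.15. Without overlap 5 lay lower (35.7%, against 15.5% of all tested transcripts) and 1 higher (7.14%, against 16.1%). Oit3 was at 11.8 and 12.4 CPM in sudachitin livers, against 16.7 and 14.5 CPM in control livers. Of 26 stellate cell and matrix genes 7 lay above 0, with a median of -0.08. Without overlap 7 lay lower (26.9%, against 15.5%) and 1, Hand2, higher (3.85%, against 16.1%). Dcn, at -0.04 (SE 0.12), and Col3a1, at -0.03 (SE 0.16), lay near 0. Acta2, smooth-muscle actin, was at 1.36 and 2.07 CPM in sudachitin livers, against 3.48 and 3.61 CPM in control livers, a difference of -1.05 (SE 0.29). Des, desmin, was at 5.70 and 6.21 CPM, against 9.28 and 8.93 CPM, a difference of -0.61 (SE 0.17). Neither overlapped between groups, neither passed, and Des overlaps an antisense gene. The collagen Col1a1 was at 4.34 and 7.87 CPM, against 7.32 and 5.84 CPM, with overlap.

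Both gene models of the ribosomal DNA unit on chromosome 17 that passed rose. Gm42418 (chr17:39846958-39848788, plus strand) was at 5860 and 7220 CPM in sudachitin livers, against 2180 and 2530 CPM in control livers. It rose by 1.47 (SE 0.15, edgeR adjusted p = 0.03). AY036118 lies inside it on the opposite strand and, at 5130 and 6330 CPM against 1910 and 2210 CPM, rose by 1.48 (SE 0.15, adjusted p = 0.03); without strand both may count the same reads. Neither passed without control replicate 1 (adjusted p = 0.11). Gm26917, another listed ribosomal DNA model, was at 54.5 and 43.2 CPM, against 36.5 and 48.1 CPM. Its difference was 0.21 (SE 0.17), with overlapping groups. Lars2, a mitochondrial leucyl-tRNA synthetase gene, is counted here among the ribosomal DNA models. Lars2 was at 799 and 658 CPM, against 255 and 343 CPM, a difference of 1.28 (SE 0.17, edgeR adjusted p = 0.10), which did not pass. The list of ribosomal DNA models and RNAs without a poly(A) tail took 1.19% and 1.44% of the exon counts in sudachitin livers, against 0.438% and 0.525% in control livers. The libraries were made by poly(A) selection, and this share was higher in both sudachitin livers than in both controls; its part in the other differences was not tested. With the ribosomal DNA models left out of the fit the count was 7, and Cfd (adjusted p = 0.057) was no longer called. Of 40 cytosolic ribosomal protein genes 39 lay above 0, at a median of 0.16, and none passed. Without overlap 25 lay higher (62.5%, against 16.1% of all tested transcripts) and 0 lower (0%, against 15.5%). Rps29 was the largest at 0.58 (SE 0.25), with overlapping groups.

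Of the 3 transcripts that fell, Aacs encodes acetoacetyl-CoA synthetase, a cytosolic enzyme that turns the ketone body acetoacetate into a precursor of sterols and fatty acids. Aacs (chr5:125475814-125517410, plus strand) was at 46.4 and 51.2 CPM in sudachitin livers, against 153 and 132 CPM in control livers. It fell by 1.55 on the log2 scale (SE 0.12, edgeR adjusted p = 0.0081). Its adjusted p was up to 0.015 with each library left out, 1.0 in the fit over all 8 libraries and 0.3 with limma on log2(FPKM + 0.1). Serpina4-ps1, a serpin pseudogene (chr12:104080649-104086724, plus strand), was at 9.05 and 8.49 CPM, against 25.7 and 39.1 CPM. It fell by 1.88 (SE 0.21, adjusted p = 0.04). Cfd encodes complement factor D, or adipsin, a protease that fat cells secrete. Cfd (chr10:79890853-79892655, plus strand) was at 2.36 and 2.55 CPM, against 13.6 and 9.19 CPM, and fell by 2.21 (SE 0.25) at an adjusted p that rounds to 0.05 and lies just under it. Without control replicate 1 the adjusted p of Cfd was 0.11. Adipoq, the defining fat-cell transcript, had 0 counts in 3 of the libraries and 1 in control replicate 2.

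Genes of sterol and lipid synthesis had values mostly below 0, none of which passed. Of 28 tested cholesterol synthesis genes 1 lay above 0, with a median of -0.23. Lower without overlap were 3 of them (10.7%, against 15.5% of all tested transcripts). Mvd, mevalonate diphosphate decarboxylase, was at 22.3 and 19.5 CPM in sudachitin livers, against 52.1 and 31.0 CPM in control livers, a difference of -0.99 (SE 0.23). Fdps, farnesyl diphosphate synthase, was at 182 and 206 CPM, against 368 and 179 CPM. By library, the median deviation of this list from the control mean was -0.16 and -0.23 in sudachitin livers and 0.32 and -0.32 in control livers, so both sudachitin livers lay between the controls. Of 31 genes that make fatty acids and triglycerides 5 lay above 0, with a median of -0.20. Gpam, the first enzyme of triglyceride synthesis, was at 434 and 385 CPM in sudachitin livers, against 632 and 534 CPM in control livers, a difference of -0.51 (SE 0.13). Acly, ATP citrate lyase, was at 448 and 444 CPM, against 748 and 479 CPM, and Acacb, acetyl-CoA carboxylase 2, at 106 and 101 CPM, against 228 and 117 CPM. In both, control replicate 1 carried most of the gap. Among 26 lipid droplet and uptake genes the median was -0.08. Cidec, a droplet protein that enlarges lipid droplets, was at 1.36 and 1.86 CPM, against 8.12 and 2.69 CPM, a difference of -1.73 (SE 0.52). G0s2, an inhibitor of triglyceride lipase, was at 90.4 and 113 CPM, against 156 and 137 CPM, a difference of -0.53 (SE 0.14). None of these passed.

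Genes of fatty acid oxidation and ketogenesis had small values below 0 in most members. Of 43 tested, 5 lay above 0, with a median of -0.11; none passed. Without overlap 15 lay lower (34.9%, against 15.5% of all tested transcripts) and 1 higher (2.33%, against 16.1%). Cpt1a, which admits fatty acids to mitochondria, was at 282 and 316 CPM in sudachitin livers, against 419 and 320 CPM in control livers. Angptl4, an inhibitor of lipoprotein lipase, differed by -0.44 (SE 0.16). The uncoupling protein gene Ucp2 went the other way, at 15.2 and 19.2 CPM, against 10.8 and 12.8 CPM. Among glucose genes (27 tested, 6 above 0, median -0.10) G6pc, the last enzyme of glucose production, was at 162 and 138 CPM in sudachitin livers, against 259 and 210 CPM in control livers. Its difference of -0.65 (SE 0.14, adjusted p = 0.87) did not overlap and did not pass. Of the insulin-responsive genes Egr1 was at 18.3 and 10.4 CPM, against 26.2 and 24 CPM, and Irs2, insulin receptor substrate 2, at 13 and 14.1 CPM, against 16.7 and 18.4 CPM. The energy regulators had a median of 0.03 over 19 tested, with Ppargc1a, the PGC-1 alpha coactivator, at 8.12 and 12.2 CPM, against 8.91 and 6.30 CPM. The 49 nuclear oxidative phosphorylation genes had a median of 0.05 and stayed within -0.16 and 0.23.

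Unfolded protein response genes, which encode chaperones and sensors of the endoplasmic reticulum, were lower in 28 of 34 tested members, with a median of -0.18, and none passed. Xbp1, their transcription factor, was at 122 and 140 CPM in sudachitin livers, against 157 and 172 CPM in control livers, a difference of -0.33 (SE 0.12). Hspa5, the chaperone BiP, was at 799 and 909 CPM, against 908 and 1310 CPM, and its groups overlapped. By library the list stood at -0.16 and -0.14 in sudachitin livers and at -0.14 and 0.14 in control livers. Sudachitin livers were thus level with control replicate 1.

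The core clock, which the title of the series asks about, showed no call at this hour. All 23 core clock genes were tested, none passed, 13 lay above 0 and the median was 0.05; the difference stayed under 0.5 in size in 20 of the 23. The largest was that of Ciart, a clock repressor, at 0.93 (SE 0.64), with overlapping groups. Among the activators, Arntl, which encodes BMAL1, was at 13.2 and 13.1 CPM in sudachitin livers, against 11.1 and 13.7 CPM in control livers, and Clock differed by 0.04 (SE 0.12). Among the repressors, Nr1d1, which encodes REV-ERB alpha, was at 114 and 92.4 CPM, against 121 and 103 CPM, and Nr1d2 differed by -0.02 (SE 0.12). Per1 was at 7.69 and 6.76 CPM, against 11.2 and 8.34 CPM, a difference of -0.43 (SE 0.20). Per2 was at 19.8 and 10.1 CPM, against 15.3 and 23 CPM. Cry1 was at 12.6 and 15.4 CPM, against 9.71 and 11.6 CPM, a difference of 0.39 (SE 0.17). Rora, a nuclear receptor that activates Arntl, was at 5.64 and 4.07 CPM, against 2.68 and 3.35 CPM, a difference of 0.69 (SE 0.26). Rora, with Cry1 and Hlf higher and Per1 lower, are the 4 members whose groups did not overlap, 13% higher and 4.35% lower, against 16.1% and 15.5% of all tested transcripts. Arntl, Rora and 8 other clock genes overlap an antisense transcript. Among 25 clock output genes Rgs16, a regulator of G protein signalling, was at 66.8 and 23.7 CPM in sudachitin livers, against 96.8 and 176 CPM in control livers, a difference of -1.59 (SE 0.45), and Upp2, a uridine phosphorylase, was at 152 and 103 CPM, against 87.6 and 87.8 CPM. Neither passed.

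**Figure D4:**
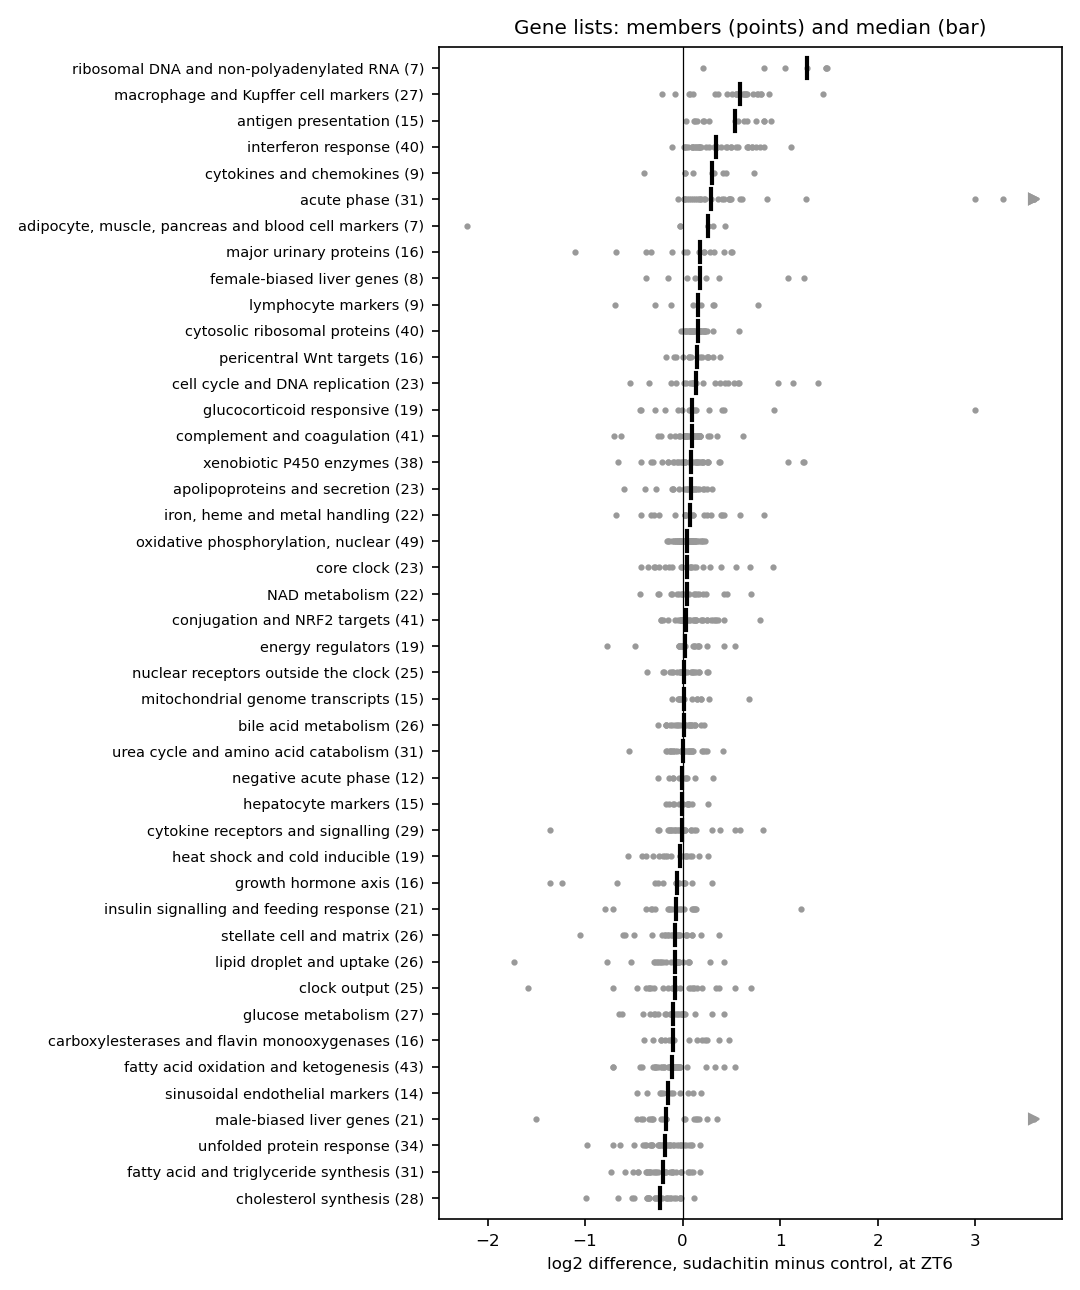
Log2 difference between sudachitin and control livers at ZT6 (horizontal axis) for the members of each gene list with at least 5 tested members (grey points; triangles stand for Saa1, Saa2 and Moxd1, which lie beyond the right edge) and the list's median (black bar); tested members are in brackets. Medians run from -0.23 for cholesterol synthesis to 1.28 for ribosomal DNA and non-polyadenylated RNA, and the core clock lies at 0.05.

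No gene of the P450, conjugation, bile acid, complement, urea cycle, apolipoprotein, nuclear receptor and cell cycle lists was called. Of 38 tested P450 enzymes, 25 lay above 0, with a median of 0.09. Cyp1a1, a target of the aryl hydrocarbon receptor to which flavonoids can bind, was at 0.806 and 1.66 CPM in sudachitin livers, against 0.290 and 0.722 CPM in control livers, a difference of 1.23 (SE 0.57). Cyp3a11, a target of the pregnane X receptor, was at 309 and 586 CPM, against 765 and 650 CPM, a difference of -0.66 (SE 0.27). Conjugation and NRF2 target genes had a median of 0.04 over 41 tested, with Gclc, which makes glutathione, at 0.33 (SE 0.14). Bile acid genes had a median of 0.01 over 26 tested, complement and coagulation genes 0.10 over 41, urea cycle and amino acid genes 0.00 over 31, apolipoproteins 0.09 over 23 and nuclear receptors outside the clock 0.01 over 25. C4a, a complement protein, was at 28.4 and 15.9 CPM, against 35.2 and 37.1 CPM. In the cell cycle list (23 tested, median 0.14) the proliferation markers Mki67, at 3.78 and 3.59 CPM against 2.03 and 1.71 CPM, and Top2a, at 2.54 and 3.38 CPM against 1.38 and 1.31 CPM, were higher in both sudachitin livers; neither passed. Over the 44 lists with at least 5 tested members, 29 had a median within 0.15 of 0, 11 a higher one and 4 a lower one.

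Some transcripts had no overlap, a group mean reaching 5 CPM and an unadjusted edgeR p under 0.05 but did not pass. Among these the largest positive differences were those of Lars2 (counted here among the ribosomal DNA models), Gadd45g and Apol9a. Gadd45g, a stress-responsive growth-arrest gene with a difference of 1.21 (SE 0.47), was at 4.46 and 13.6 CPM in sudachitin livers, against 3.99 and 3.74 CPM in control livers. Phlda1 was at 85.4 and 122 CPM, against 61.9 and 40.2 CPM, and Igfbp5, an IGF-binding protein, at 11.7 and 13.5 CPM, against 6.59 and 6.57 CPM. Cers6, a ceramide synthase, differed by 0.98 (SE 0.28), Ly6a by 0.95 (SE 0.32) and Stmn1, which binds tubulin, by 0.86 (SE 0.21). On the negative side Egfr, the epidermal growth factor receptor, was at 236 and 113 CPM in sudachitin livers, against 380 and 447 CPM in control livers, a difference of -1.24 (SE 0.30). Smad9, a transducer of bone morphogenetic protein signals, was at 2.79 and 2.90 CPM, against 8.62 and 6.37 CPM, a difference of -1.39 (SE 0.24). Ppp1r10 differed by -1.08 (SE 0.32), Sgsm1 by -1.06 (SE 0.31), Tgm1, a transglutaminase, by -1.0 (SE 0.19) and Synpo, an actin-binding protein, by -0.99 (SE 0.21). Igfbp5 was close within groups, whereas the gap of Gadd45g lay mostly in sudachitin replicate 2. Among the genes named without strand, Il6ra, Des, Ucp2, Irs2, Rgs16, Phlda1 and Tgm1 overlap an antisense transcript.

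Sex-biased genes, which pulsatile growth hormone sets in mouse liver, differed between the mice of both groups. All 21 tested male-biased genes and all 16 tested major urinary protein genes were higher in sudachitin replicate 1 than in replicate 2, and all 8 tested female-biased genes were lower, while 50.3% of all tested transcripts were higher in replicate 1. The median deviation from the control mean was -0.41 and 0.69 in sudachitin and 0.55 and -0.55 in control livers for the female-biased genes, and 0.89 and -0.65, against -0.49 and 0.49, for the major urinary proteins. The controls were thus split as well. Of the 16 tested genes in the growth hormone axis list 7 were higher in sudachitin replicate 1. Cyp4a12a, a male-specific P450, was at 114 and 37.3 CPM in sudachitin livers, against 235 and 196 CPM in control livers. Socs2, a growth hormone target, was at 1.36 and 13 CPM, against 26.9 and 9.65 CPM, and Cyp2b9, a female-biased P450, at 1.30 and 26.8 CPM, against 8.91 and 2.89 CPM. Moxd1 was at 35.3 and 0 CPM, against 0.145 and 1.18 CPM, so that its difference of 4.68 (SE 1.77) rests on 1 liver. In Socs2 and Cyp2b9 the groups overlapped.

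Whether the ZT6 differences depend on the hour was tested with the 4 ZT18 libraries as an interaction of treatment and time. Of 14506 tested transcripts 0 passed in edgeR, which is 0%; 548 lay under an unadjusted p of 0.05, 235 higher and 313 lower at ZT6, and DESeq2 called 14. Without control ZT18 replicate 2 the edgeR count was 13. At ZT18 the groups overlapped in Saa1, Orm2 and Lcn2. Saa1 was at 153 and 42.5 CPM in sudachitin and 93.5 and 18.9 CPM in control livers at ZT18, and Orm2 was at 10.6 and 7.63 CPM, against 26.7 and 5.76 CPM. The difference at ZT6 exceeded that at ZT18 by 3.70 for Saa1 (SE 1.07, edgeR adjusted p = 1.0) and by 4.14 for Orm2 (SE 0.80, adjusted p = 0.88), neither of which passed. Fgl1 was at 430 and 151 CPM, against 112 and 144 CPM, at ZT18, and Aacs at 73.0 and 200 CPM, against 151 and 160 CPM. Serpina4-ps1, lower in sudachitin livers at ZT6, was at 110 and 201 CPM in sudachitin and 1.84 and 43.2 CPM in control livers at ZT18; its interaction of -4.70 (SE 1.37) had an adjusted p of 1.0. Gm42418 was higher at both hours, at 7760 and 8410 CPM, against 2380 and 2040 CPM, at ZT18. Across the macrophage list the median at ZT18 was -0.06, with 10 of 28 members above 0, and across the acute-phase list 0.24, with 21 of 31. Across the interferon list it was 0.03, with 24 of 41 above 0, across the unfolded protein response 0.27, with 27 of 34, and across the male-biased genes 1.06, with 21 of 21. Smad9 was at 13.5 and 12.0 CPM in sudachitin and 1.79 and 5.76 CPM in control livers at ZT18, the opposite of its order at ZT6, and its interaction of -3.19 had an adjusted p of 0.88. The fit over all 8 libraries had a common biological coefficient of variation of 0.1679, against 0.1269 in the 4 ZT6 libraries.

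**Figure D5:**
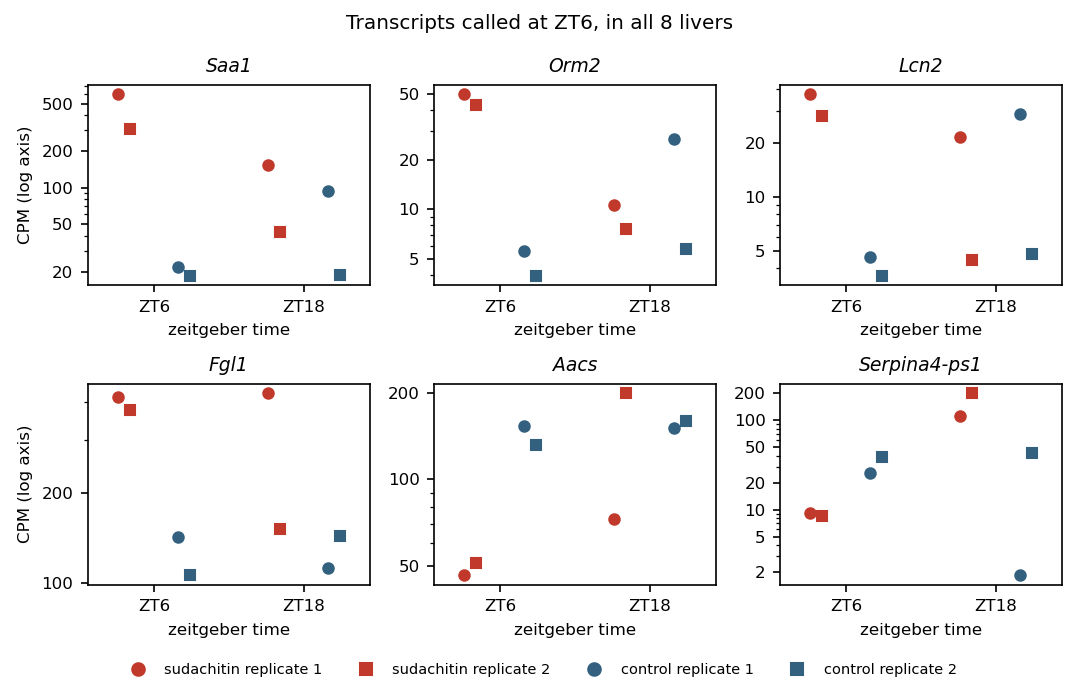
CPM (log axis, a scale of its own in each panel) of 6 transcripts called at ZT6, in the 2 sudachitin (red, left) and 2 control (blue, right) livers of ZT6 and of ZT18; circles are replicate 1 and squares replicate 2. The groups are apart at ZT6 in all 6 panels; at ZT18 they overlap in Saa1, Orm2, Lcn2 and Aacs, Fgl1 is raised in 1 sudachitin liver at 430 CPM, and Serpina4-ps1 lies higher in sudachitin livers.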

How the data were processed

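Poly(A) RNA of liver (RNA integrity number above 9.0, 2 µg) was read as unstranded 150-base pairs, per the labels' protocols. Trimmomatic 0.39, STAR 2.7.2a and HOMER, whose version is not given in the sources used here, are named without roles in the submitters' processing notes, with mouse genome GRCm38 (mm10). For 55421 transcripts the authors deposited an estimated count in exons, in steps of 0.5, not normalized, per the file headers. Before the tests each was rounded to an integer, with 0.5 going up. The second deposited table holds FPKM, which differ from count per length and header total by at most 4.0e-11. How reads with several positions were counted is not given in the sources used here, and 6806 transcripts overlap an exon of the opposite strand.

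Groups and replicate numbers came from sample titles. The test on the 4 ZT6 libraries used edgeR 4.0.16 under R 4.3.3 (filter by group, TMM factors 0.9926 to 1.0103, quasi-likelihood F test, Benjamini-Hochberg adjustment over all 13681 transcripts, threshold 0.05). Each title names a mouse. The p-values set the difference between groups against a spread estimated from these mice and from the other tested transcripts. At ZT6 this spread had 2 residual degrees of freedom from the mice and 5.472 shared across transcripts. The SE is the size of the log2 difference divided by the square root of F. The interaction was tested on all 8 libraries. The fits were tested on simulated data. Alternatives were DESeq2 1.42.0, limma 3.58.1 on log2(FPKM + 0.1) and log2(FPKM + 1), other scalings and filters, a robust spread, all 8 libraries, the replicate number as a block, the ribosomal DNA models left out, and each library left out. The 2 mice of a group differed beyond sampling noise, with chi-square per degree of freedom of 19.9 in sudachitin and 17.5 in control.

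The comparison, its members and the 46 gene lists (1060 symbols, 1052 in the table) were chosen with earlier results of these data known; lists are described by counts and medians without a test. The rule for named genes takes every called transcript, the 10 largest rises and falls among transcripts with no overlap, a group mean reaching 5 CPM and an unadjusted p under 0.05, all core clock genes, 4 members of each list with the smallest p, and defining markers of cell types. Genes named beyond it, such as Hp, Hpx, Itih3, Itih4, Fga, Fgb, Fgg, Saa3, Saa4, Orm3, Serpina3n, Il6, Tnf and Il1b, were named after their values were seen. Promoters are RefSeq sequences of GRCm38.p6, and coordinates are 1-based on GRCm38.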

Additional observations from a re-analysis of the deposited data

How the results depend on the processing

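The count of 10 called transcripts at ZT6 (7 higher, 3 lower) was 19 with DESeq2 (14 higher, 5 lower), 158 with no filter on low counts (79 and 79), 6 with a filter of 5 CPM in 2 libraries (5 higher, 1 lower), 0 with all 8 libraries, and 0 with limma on log2(FPKM + 0.1) or log2(FPKM + 1). The causes of these shifts were not tested. It was 9 with median-of-ratios factors, 10 with total counts, 9 with a robust spread and 7 without the ribosomal DNA models. Leaving out each library gave 8 to 50, the 50 being without sudachitin replicate 1. Same-numbered mice of the 2 groups did not deviate together over all transcripts (r = -0.018). Whether the numbers mark mice that shared a cage or day cannot be told from this correlation. With the replicate block the count was 7. The interaction count of 0 was 14 with DESeq2, 259 with no filter, and 0 to 13 with each library left out, the 13 being without control ZT18 replicate 2. No scaling moved the median of all transcripts by more than 0.009 on the log2 scale. Over 224 named genes and all alternatives 3175 of 3316 values kept their side of the threshold, 44 lost a call and 97 gained one. Of the values called in the main fit or in the alternative, 0 reversed direction. Changes of direction in values called in neither fit were not counted. Of 660 list medians 28 moved by more than their spread. Depth limits what can be said of Il6, Tnf, Il1b and neutrophil markers, which had few or no counts.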

Other observations

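Cish and Onecut1, both known growth hormone targets in liver, were chosen after their values were seen. Cish stood at 1.55 and 27.7 CPM in sudachitin livers, against 20.6 and 3.15 CPM in control livers. Onecut1 was at 4.83 and 39.5 CPM in sudachitin livers, against 55.4 and 14.7 CPM in control livers. In both genes sudachitin replicate 2 and control replicate 1 were the high livers. Among urea cycle and amino acid genes 29 of 31 were higher in sudachitin replicate 1 than in replicate 2, while the list's median difference between treatments was 0.00.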
